A study of Mus musculus with 20 samples.

Results

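The solute carriers are the largest family of membrane transport proteins in mammals, and 180 of their genes were described here in mouse blastocysts that had received a microRNA mimic as zygotes. The genes were chosen by name and by level. Of 16014 named genes in the table, 282 carried a solute carrier symbol, 2 of these (Slc7a11 and Slc6a8) were left out by name, and 100 had a mean normalized count under 50 over the 20 libraries. The remaining 180 all passed the filter on low values and were tested among 15068 genes. Slc4a1ap, which encodes an adaptor protein, and Slc7a6os, a gene on the opposite strand of Slc7a6, matched only by their symbols, so 178 were carriers.

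The embryos, wild type F1 C57BL/6Jx129S1/SvlmJ, fell into 3 groups, each injected at the zygote stage and cultured to the blastocyst stage in the same medium. The Str let-7f group (8 pools) received let-7f-5p mimic in an amount meant to match the rise that stress causes in mature sperm, the 2x Str let-7f group (5 pools) received 2x that concentration, and the vehicle group (7 pools) received nuclease-free water, the solvent of the mimic. Every pool held 10 blastocysts and gave 1 library of ribosome-depleted total RNA. No group received an unrelated mimic, so effects of any small RNA and of this sequence cannot be told apart.

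Transport starts before implantation, because a blastocyst takes up amino acids, glucose, phosphate, nucleosides and trace metals from the fluid around it, and the trophectoderm, its outer epithelium, moves ions to fill the blastocoel. Carriers are named by sequence family and number, and most families serve a class of substrates: Slc7 and Slc38 carry amino acids, Slc2 glucose, Slc30 and Slc39 zinc and related metals, Slc28 and Slc29 nucleosides, and Slc25 metabolites across the inner mitochondrial membrane. A microRNA lowers messenger RNAs that pair with its seed, which is bases 2 to 8. The injected strand is shown with the seed in capitals, because the target sites described further on are its complement.
let-7f-5p mimic: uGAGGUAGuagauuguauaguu

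The libraries held 1.54 M to 58.8 M reads in Str let-7f pools (median 12.4), 1.94 M to 27.2 M in 2x Str let-7f pools (median 5.04) and 3.30 M to 46.6 M in vehicle pools (median 10.5). At these depths 3 reads were worth 0.481 to 19.0 normalized counts. The embryos held the marker transcripts of a blastocyst: 8 of 8 trophectoderm and 7 of 8 epiblast markers were in the table (Tdgf1 was not analysed here), and 0 of them passed the test in either comparison with vehicle. The 16 primitive endoderm markers did differ: 10 fell in Str let-7f pools and 8 in 2x Str let-7f pools, beside 0.796% and 0.664% of all genes. Their summed level was 59800 to 74900 normalized counts in Str let-7f, 62000 to 74200 in 2x Str let-7f and 88500 to 107000 in vehicle pools. Cyp19a1, the 1 of 7 cumulus cell markers in the table, had 0 to 22.4 normalized counts, and the 2 of 6 blood markers in the table (Ptprc and Cd74) summed to at most 35.5. The 6 measured markers of the two-cell stage all had fitted levels above vehicle, with median log2 differences of 2.44 in the Str let-7f group and 2.88 in the 2x Str let-7f group. In vehicle pools 4 of the 6 had 0 counts throughout, so these 4 passed the filter on low values only through mimic pools. Their direction was thus fixed in advance, and the size of their differences depends on the 1 added to each count. Of the 6 markers 1 passed in the Str let-7f group and 0 in the 2x Str let-7f group, beside 2.63% and 1.89% of all genes, and 5 and 4 had an unadjusted p under 0.05. Their summed level was low, 19.4 to 545 normalized counts in Str let-7f (median 182), 102 to 227 in 2x Str let-7f (median 116) and 15.4 to 75.1 in vehicle pools (median 55.5). The part of either marker list in the carrier results was not tested. In such pools fewer cells of a type and less RNA per cell cannot be told apart.

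The 180 genes spanned a wide range of levels. Their mean normalized counts ran from 53.2 to 9269 with a median of 274.4; 25 averaged at least 1000 and 28 under 100. Together they made up 1.01% to 1.19% of all counts in a library (median 1.10%). Per kilobase of annotated transcript the most abundant was Slc2a3, which encodes the glucose carrier GLUT3, with a mean level of 2341 normalized counts per kilobase. It was followed by the mitochondrial phosphate carrier gene Slc25a3 with 2178, the adenine nucleotide translocase gene Slc25a5 with 2099 and the choline carrier gene Slc44a1 with 1936. The spread between pools was moderate: the coefficient of variation of a gene had a median of 35.7% in Str let-7f, 30.6% in 2x Str let-7f and 30.4% in vehicle pools. Just above the threshold of 50 lay Slc6a15 (mean 53.2) and Slc29a4 (59.5), and just below it Slc4a5 (49.0) and Slc29a2 (48.3). The mean over all libraries was the only measured value in the rule, and 6 of the genes, among them Slc4a3, Slc13a4 and Slc16a5, averaged under 50 in vehicle pools and passed it through mimic pools. Conversely, 2 genes averaged under 50 in both mimic groups and passed it through vehicle pools. Slc6a15 was among them, with means of 42.9 in Str let-7f, 40.3 in 2x Str let-7f and 74.1 in vehicle pools.

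Few carrier genes differed from vehicle. In Str let-7f pools 6 of 180 genes rose and 0 fell, against 1.84% of all 15068 genes that rose and 0.796% that fell (2.63% in either direction). At the higher concentration, in 2x Str let-7f pools, 5 rose and 1 fell, against 1.23% and 0.664% of all genes (1.89% in either direction). That makes 3.33% of the 180 genes in each comparison, beside those 2.63% and 1.89%. All genes tested needed only 10 normalized counts in 5 libraries, whereas the 180 averaged at least 50, so the shares are not matched for level. Slc4a3 and Slc13a4, which rose in both comparisons, are among the 6 genes that met the mean of 50 only through mimic pools, so a rise favoured their entry and the count of rises gives no support. Without those 6, an alternative chosen after seeing the data, 4 of 174 genes rose and 0 fell in Str let-7f pools, and 3 rose and 1 fell in 2x Str let-7f pools (2.30% in each). The counts moved with the fit. Weighting libraries by their quality gave 8 higher and 6 lower genes in Str let-7f and 13 higher and 7 lower in 2x Str let-7f pools. Libraries over 5 M reads alone gave 2 higher and 1 lower in Str let-7f and 1 higher and 0 lower in 2x Str let-7f pools. That fit rested on fewer pools, without Str let-7f replicate 9, 2x Str let-7f replicates 2 and 4 and vehicle replicates 6 and 8. The share of all genes called under the same fits is not given here, so nothing is read from these counts about carriers. Calls were made by limma on log2(normalized count + 1) at a Benjamini-Hochberg adjusted p under 0.05 over all genes, two-sided. Whether the pools stem from separate females or days is not given in the labels, so a p-value speaks only of pool-to-pool spread, which may be technical.

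Slc4a3, Slc13a4, Slc25a20 and Slc5a3 rose at both concentrations, which share the vehicle pools. Slc1a1 and Slc12a7 passed only in the Str let-7f comparison and Slc43a2 and Slc25a28 only in the 2x Str let-7f comparison, and for none of the 4 did the mimic groups themselves differ at an adjusted p under 0.05. The median log2 difference of the 180 genes was 0.00 for Str let-7f and 0.02 for 2x Str let-7f, beside -0.02 and -0.01 over all genes tested. At an unadjusted p under 0.05 stood 42 of the 180 genes (23.3%) in the Str let-7f comparison, beside 14.9% of all genes, and 43 (23.9%) in the 2x Str let-7f comparison, beside 12.9%. These divided about evenly, with 22 above and 20 below 0 in Str let-7f and 22 above and 21 below 0 in 2x Str let-7f.

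**Figure D1:**
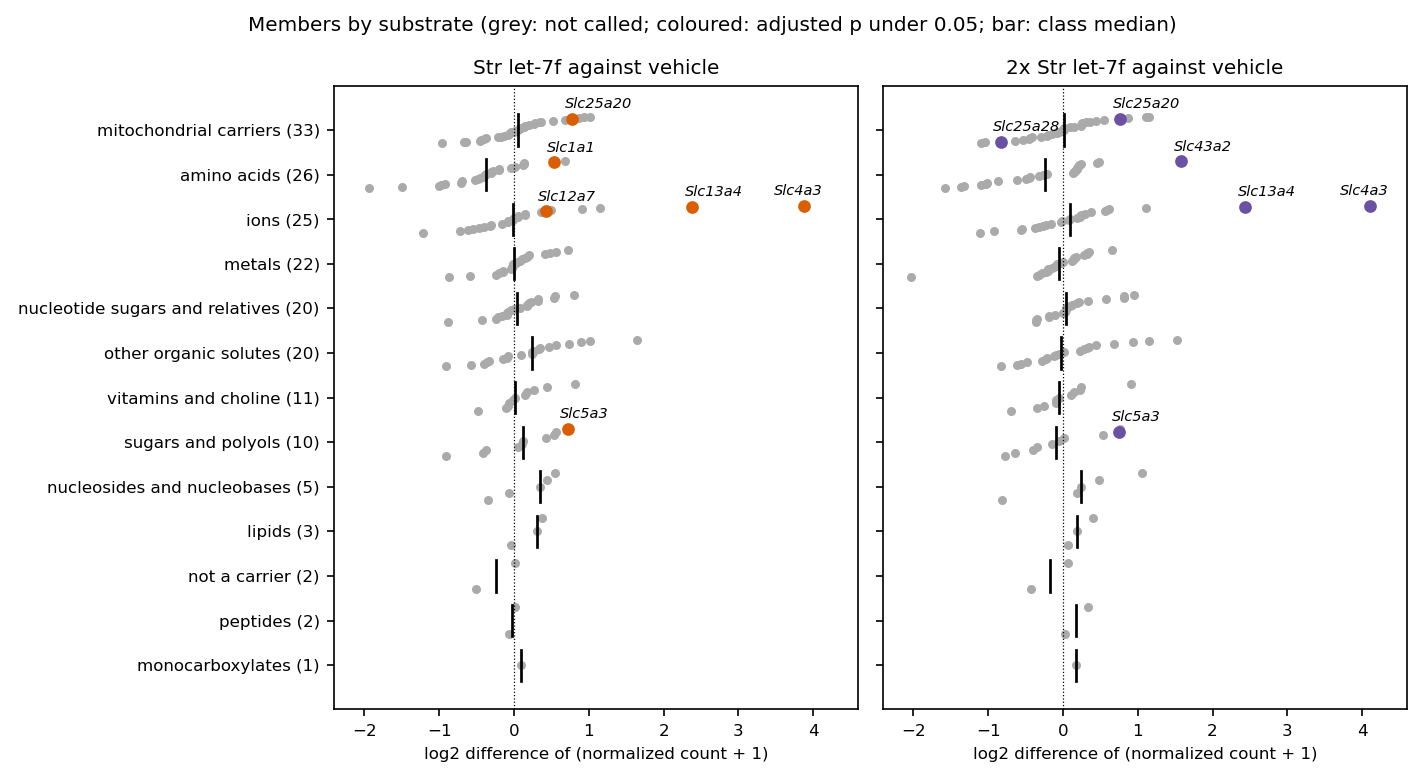
Each point is 1 of the 180 genes, placed by its log2 difference of (normalized count + 1) from vehicle on the horizontal axis and by substrate class down the page, with the number of genes in brackets; the left panel shows Str let-7f against vehicle, the right panel 2x Str let-7f against vehicle. Coloured and named points passed the test, bars are class medians; most points lie within 0.5 of 0, the amino acid class has its median at -0.38 and -0.24, and Slc4a3 and Slc13a4 lie far to the right in both panels.

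Groups that did not overlap at all were few. Every Str let-7f pool lay above every vehicle pool for Slc4a3 and Slc16a5, 2 of 180 genes, beside 0.617% of all genes, and no gene lay wholly below, beside 0.232%. For Slc13a4, Slc35f5, Slc5a3 and Slc2a8 the 2x Str let-7f pools lay wholly above vehicle, beside 1.36% of all genes, and for Slc5a6 wholly below, beside 0.889%. Slc4a3, Slc16a5 and Slc13a4 are among the 6 genes that entered through mimic pools; without these 6, 0 of 174 genes lay wholly above vehicle in Str let-7f pools and 3 in 2x Str let-7f pools.

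Slc4a3 moved most. It encodes AE3, an anion exchanger of the plasma membrane that swaps chloride for bicarbonate and is best known from heart and brain. Normalized counts in Str let-7f pools ran from 111.8 over a median of 191.8 to 905.0, the 2x Str let-7f pools had 64.0, 380.9, 623.2, 562.9 and 305.4, and vehicle pools ran from 1.19 over a median of 15.8 to 67.8. All 8 Str let-7f pools and 4 of 5 2x Str let-7f pools lay above the highest vehicle pool, and 2x Str let-7f replicate 1 lay just under it. The log2 difference was 3.88 ± 0.62 (SE; 14.7-fold) in Str let-7f (limma, adjusted p = 0.000794) and 4.10 ± 0.71 (17.2-fold) in 2x Str let-7f (adjusted p = 0.00222). The reads behind these levels were few in vehicle pools, 1 to 126 per library (median 17), and 25 to 4088 in Str let-7f and 32 to 1684 in 2x Str let-7f libraries. The call held in every alternative tried and without any single library.

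Slc13a4 encodes the sodium-sulfate cotransporter NaS2, which supplies sulfate to the fetus in the mouse placenta. It had 25.4 to 259.7 normalized counts in Str let-7f pools (median 84.5), 52.0, 61.8, 146.2, 62.0 and 91.8 in 2x Str let-7f pools, and 3.57 to 35.8 in vehicle pools (median 12.1). The 2x Str let-7f pools all lay above vehicle, whereas 2 of 8 Str let-7f pools lay among the vehicle values. The log2 difference was 2.38 ± 0.53 (5.21-fold; limma, adjusted p = 0.0127) in Str let-7f and 2.44 ± 0.60 (5.43-fold; adjusted p = 0.0339) in 2x Str let-7f. Libraries held only 15 to 423, 12 to 395 and 3 to 168 reads of it in Str let-7f, 2x Str let-7f and vehicle pools. Slc13a4 too met the mean of 50 only through mimic pools, so a rise favoured its entry. The Str let-7f call held without any single library, while the 2x Str let-7f call was lost without vehicle replicate 1, 2, 3 or 7 or 2x Str let-7f replicate 2, 3, 4 or 5 (adjusted p up to 0.105) and with libraries over 5 M reads only (adjusted p = 0.0634).

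Slc25a20 encodes the carnitine-acylcarnitine translocase, which brings long-chain fatty acids into mitochondria for oxidation. Normalized counts were 545.4 to 1267 in Str let-7f pools (median 983.3), 748.0, 1107, 912.2, 1007 and 670.4 in 2x Str let-7f pools, and 446.9 to 685.3 in vehicle pools (median 489.4). Vehicle replicate 7 stood apart from the other vehicle pools, and 6 of 8 Str let-7f and 4 of 5 2x Str let-7f pools exceeded even that one. The log2 difference was 0.78 ± 0.18 (1.71-fold; limma, adjusted p = 0.0150) in Str let-7f and 0.76 ± 0.20 (1.70-fold; adjusted p = 0.0482) in 2x Str let-7f. With libraries over 5 M reads only, which leaves fewer pools, the log2 differences were 0.70 and 0.52 and neither call held (limma, adjusted p = 0.115 and 0.536). The 2x Str let-7f call was also lost without any one of its pools or of the vehicle pools other than vehicle replicate 7 (adjusted p up to 0.138).

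Slc5a3 encodes SMIT1, the cotransporter that takes up myo-inositol with sodium and is known as a gene of the response to high osmolality. Normalized counts were 510.4 to 878.4 in Str let-7f pools (median 697.6), 636.0, 604.9, 583.2, 1152 and 582.9 in 2x Str let-7f pools, and 329.1 to 563.5 in vehicle pools (median 397.8). The 2x Str let-7f pools all exceeded vehicle, with replicate 4, one of the shallowest libraries, far above the rest, and 5 of 8 Str let-7f pools did. The log2 difference was 0.72 ± 0.17 (1.64-fold; limma, adjusted p = 0.0186) in Str let-7f and 0.75 ± 0.19 (1.68-fold; adjusted p = 0.0411) in 2x Str let-7f. With libraries over 5 M reads only, which leaves fewer pools, the log2 differences were 0.60 and 0.45 and neither call held (limma, adjusted p = 0.0807 and 0.477). The 2x Str let-7f call was also lost without vehicle replicate 1, 3, 6, 7 or 8 or any one 2x Str let-7f pool (adjusted p up to 0.143). In the mouse annotation Slc5a3 shares exon sequence of up to 159 bases with Mrps6 on the same strand, so reads of the 2 genes may be divided between them; Mrps6, a mitochondrial ribosomal protein gene, differed by 0.46 ± 0.23 in Str let-7f (limma, adjusted p = 0.357) and 0.55 ± 0.26 in 2x Str let-7f (adjusted p = 0.373).

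**Figure D2:**
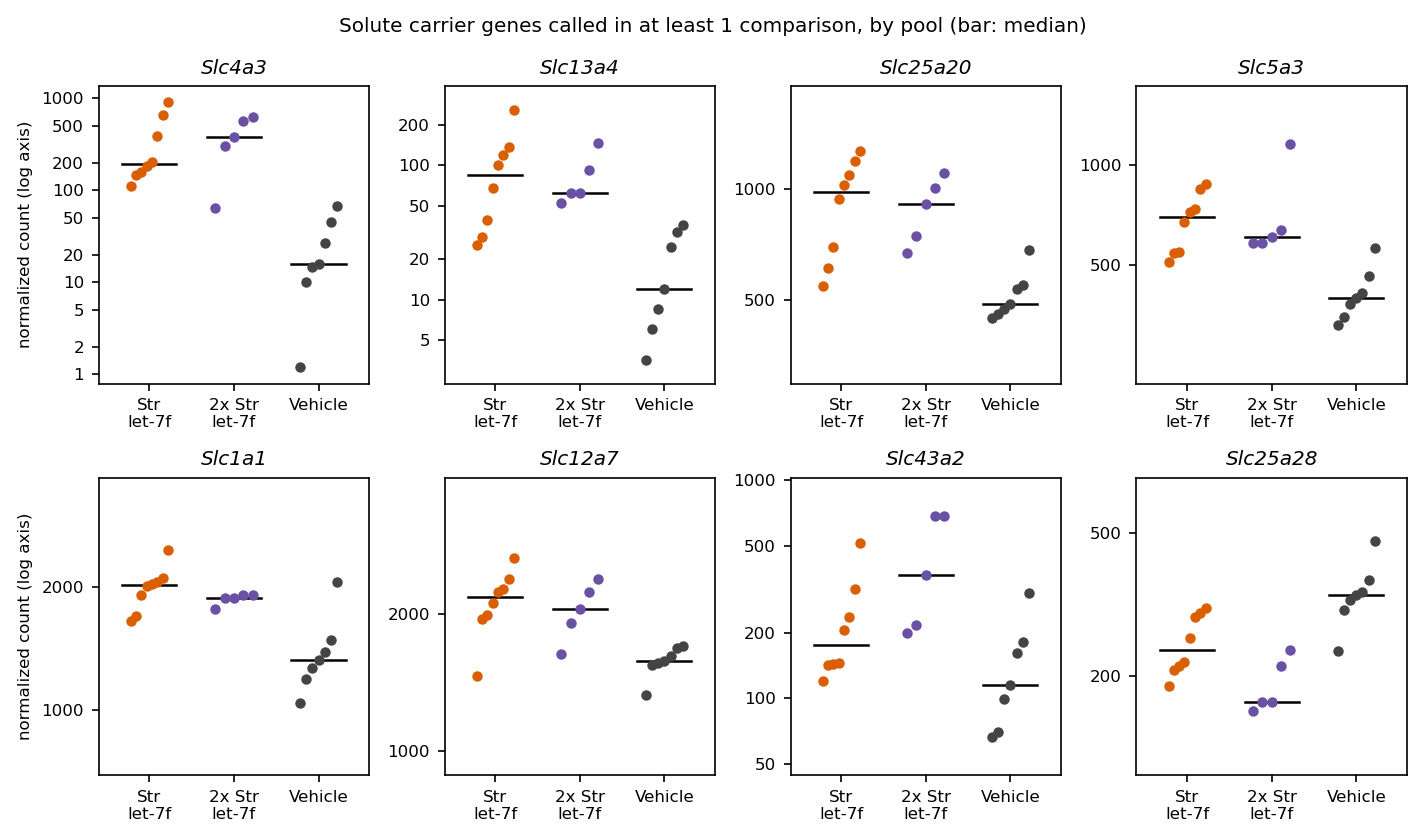
Normalized counts (vertical log axis, a different range in each panel) of the 8 genes that passed in at least 1 comparison with vehicle, with 1 point per pool and the group median as a bar; groups from left to right are Str let-7f (8 pools), 2x Str let-7f (5) and vehicle (7). Slc4a3 shows the widest gap, with Str let-7f pools from 111.8 and vehicle pools up to 67.8, and Slc25a28 is the gene that fell in 2x Str let-7f.

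The promoters of the 4 genes that rose at both concentrations are shown because these genes passed in both comparisons, which share the vehicle pools. Each covers 250 bases before to 50 bases after the annotated start, from RefSeq on GRCm38.p6, in the direction of the gene: chr1:75546212-75546511 on the plus strand for Slc4a3, chr6:35308077-35308376 on the minus strand for Slc13a4, chr9:108661886-108662185 on the plus strand for Slc25a20 and chr16:92058072-92058371 on the plus strand for Slc5a3. Capitals mark the GC box GGGCGG on either strand, where overlapping matches run together.
Slc4a3: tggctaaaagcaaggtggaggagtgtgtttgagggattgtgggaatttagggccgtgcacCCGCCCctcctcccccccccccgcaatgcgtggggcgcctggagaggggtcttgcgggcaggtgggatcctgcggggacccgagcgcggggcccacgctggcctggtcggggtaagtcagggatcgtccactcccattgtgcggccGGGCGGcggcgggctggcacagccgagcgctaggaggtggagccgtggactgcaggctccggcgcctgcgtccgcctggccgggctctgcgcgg
Slc13a4: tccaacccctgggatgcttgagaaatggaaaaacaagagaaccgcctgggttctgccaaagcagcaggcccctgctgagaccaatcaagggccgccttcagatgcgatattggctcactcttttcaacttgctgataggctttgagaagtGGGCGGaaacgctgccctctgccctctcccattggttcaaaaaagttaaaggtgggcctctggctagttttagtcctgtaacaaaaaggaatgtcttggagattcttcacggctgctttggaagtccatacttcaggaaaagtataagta
Slc25a20: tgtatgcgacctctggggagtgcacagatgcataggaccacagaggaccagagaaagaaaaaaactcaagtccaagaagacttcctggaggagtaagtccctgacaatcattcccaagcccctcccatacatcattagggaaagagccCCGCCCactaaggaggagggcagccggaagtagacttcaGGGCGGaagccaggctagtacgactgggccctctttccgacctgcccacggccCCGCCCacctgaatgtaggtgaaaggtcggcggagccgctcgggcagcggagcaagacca
Slc5a3: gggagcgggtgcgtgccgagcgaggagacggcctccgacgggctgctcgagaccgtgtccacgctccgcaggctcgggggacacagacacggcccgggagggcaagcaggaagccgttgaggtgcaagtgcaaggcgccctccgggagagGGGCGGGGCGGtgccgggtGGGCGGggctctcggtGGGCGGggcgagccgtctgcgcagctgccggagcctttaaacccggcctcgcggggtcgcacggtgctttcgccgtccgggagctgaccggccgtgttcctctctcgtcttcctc

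The GC box was found 2 times for Slc4a3, 1 time for Slc13a4, 3 times for Slc25a20 and 4 times for Slc5a3. It is common: 35.7% of 32851 promoters of the same length held it, and 73.0% of the 189 promoters that matched 138 of the 180 genes did. On both strands, none of the 4 windows held the letters of the AP-1 motif TGANTCA (7.81% of all promoters), the E-box CACGTG (7.15%), the cyclic AMP response element TGACGTCA (1.79%) or the antioxidant response element TGACNNNGC (12.4%). The E-box and antioxidant response element letters were in 13.2% and 21.7% of the promoters of the carrier genes.

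Among the 26 amino acid carriers, levels below vehicle were frequent at the lower concentration, although none of the lower ones passed in the main limma fit. In Str let-7f 20 of 26 had a lower fitted level than in vehicle, with a median log2 difference of -0.38 (quartiles -0.66 and -0.08). Beside this, 7809 of all 15068 genes lay below 0, with a median of -0.02. In 2x Str let-7f 14 of 26 were below 0, with a median of -0.24, beside 7637 of all genes and a median of -0.01. Across the 33 alternatives the count below 0 was 19 to 22 in Str let-7f and 14 to 19 in 2x Str let-7f, and the median stayed below 0 under each. These fits reuse the same pools and give no independent support. Changes of filter, and leaving out a pool of the group not compared, cannot alter a gene's difference. In limma 1 carrier passed in each comparison (3.85%, beside 2.63% and 1.89% of all genes), Slc1a1 in Str let-7f and Slc43a2 in 2x Str let-7f pools, and both rose. DESeq2 on whole reads also called Slc7a1 and Slc7a6 lower in Str let-7f pools (adjusted p = 0.0469 and 0.0271), edgeR neither, and with array weights limma called Slc7a1, Slc7a6, Slc38a2 and Slc38a4 lower. At an unadjusted p under 0.05 stood 9 of the 26 in either comparison (34.6%, beside 14.9% and 12.9% of all genes). Of these 8 lay below 0 in the Str let-7f group and 7 in the 2x Str let-7f group.

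Slc1a1 encodes EAAC1, which takes up glutamate, aspartate and cysteine. It had 1653 to 2464 normalized counts in Str let-7f pools (median 2023), 1874, 1910, 1907, 1766 and 1877 in 2x Str let-7f pools, and 1043 to 2051 in vehicle pools (median 1328). Vehicle replicate 1, the highest, lay among the mimic pools. The gene rose by 0.53 ± 0.12 on the log2 scale in Str let-7f (limma, adjusted p = 0.0119), and its difference in 2x Str let-7f was 0.45 ± 0.13 (adjusted p = 0.0852). The Str let-7f call held without any single library (adjusted p up to 0.0318). With libraries over 5 M reads only, the Str let-7f difference was 0.37 (adjusted p = 0.148).

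Slc43a2 encodes LAT4, a facilitative carrier of branched-chain amino acids, phenylalanine and methionine. It had 119.9 to 513.0 normalized counts in Str let-7f pools (median 174.8), 684.0, 368.1, 199.1, 686.9 and 217.9 in 2x Str let-7f pools, and 66.6 to 305.1 in vehicle pools (median 114.8). In 3 of 5 2x Str let-7f pools it exceeded every vehicle pool. It rose by 1.58 ± 0.42 (2.99-fold; limma, adjusted p = 0.0493) in 2x Str let-7f, and its difference in Str let-7f was 0.69 ± 0.37 (adjusted p = 0.393). The call rested close to the threshold: it was lost without vehicle replicate 1, 2, 3, 5, 6 or 7 or 2x Str let-7f replicate 1, 2, 4 or 5 (adjusted p up to 0.163), and edgeR on whole reads gave an adjusted p of 0.0507.

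Several carriers of cationic and of small neutral amino acids had lower values; they were picked out after their values were seen. Slc7a1, which encodes the arginine and lysine carrier CAT1, had 493.4 to 1914 normalized counts in Str let-7f pools (median 746.2), 1824, 939.5, 520.7, 480.3 and 727.8 in 2x Str let-7f pools, and 1153 to 2269 in vehicle pools (median 1637). Below every vehicle pool lay 6 of 8 Str let-7f and 4 of 5 2x Str let-7f pools, and Str let-7f replicate 2 as well as 2x Str let-7f replicate 1 lay among or near the upper vehicle values. The log2 difference was -0.998 ± 0.28 (limma, adjusted p = 0.0578) in Str let-7f and -1.09 ± 0.32 (adjusted p = 0.0818) in 2x Str let-7f, so it did not pass. In Str let-7f pools it passed with only both groups compared (adjusted p = 0.0367), with array weights (0.00386) and in DESeq2 (0.0469), but not in edgeR (0.115), and with array weights it passed in 2x Str let-7f pools too (0.00514). Without 2x Str let-7f replicate 1 it passed in both comparisons (limma, adjusted p = 0.0248 and 0.0143), and without Str let-7f replicate 2 likewise (adjusted p = 0.0125 and 0.0458). In Str let-7f it also passed without vehicle replicate 7 (adjusted p = 0.0447), Str let-7f replicate 1 (0.039) or 2x Str let-7f replicate 4 (0.0487). With a replicate block it passed in both comparisons (limma, adjusted p = 0.0464 and 0.0369). Without the remaining single libraries it did not pass. Its adjusted p then reached 0.127 in Str let-7f (vehicle replicate 2) and 0.247 in 2x Str let-7f (2x Str let-7f replicate 4). With libraries over 5 M reads only, it was 0.158 and 0.415.

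Slc38a2, which encodes the system A carrier SNAT2 of small neutral amino acids, averaged 471.1 ± 292.0 normalized counts in Str let-7f, 417.1 ± 223.9 in 2x Str let-7f and 799.4 ± 253.2 in vehicle pools (SD, n = 8, 5 and 7). Its log2 differences were -0.92 and -1.01 (limma, adjusted p = 0.144 and 0.188). Slc7a3, the gene of another cationic carrier, CAT3, had differences of -1.49 and -1.37 (adjusted p = 0.199 and 0.375) at a low mean level of 85.5. Slc6a9 encodes GLYT1, the glycine carrier through which early mouse embryos accumulate glycine as an osmolyte; its differences were -1.94 and -1.58 (adjusted p = 0.206 and 0.466), and its mean level was 61.8. None of these passed the test, and SEs of the last 2 genes reached 0.57 to 0.85.

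Other amino acid carriers differed less. Slc38a4 (SNAT4) lay at -0.39 and -0.49 (limma, adjusted p = 0.134 and 0.106), Slc7a6, which encodes a light chain that exchanges cationic for neutral amino acids, at -0.45 and -0.26 (adjusted p = 0.0824 and 0.504), and the lysosomal glutamine carrier gene Slc38a7 at -0.71 and -0.61 (adjusted p = 0.0929 and 0.279). Slc3a2, the heavy chain that brings several Slc7 light chains to the cell surface, lay at -0.20 and -0.45 (adjusted p = 0.713 and 0.442). Its partners Slc7a5 (LAT1) and Slc7a8 (LAT2) lay at -0.40 and 0.19 (adjusted p = 0.455 and 0.857) and at -0.97 and -1.03 (adjusted p = 0.256 and 0.351). Slc38a6, the most abundant of the class per kilobase, had differences of 0.13 and 0.25, and Slc38a1 (SNAT1) of -0.20 and -0.21 (adjusted p of at least 0.483).

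The class did not move evenly across pools. Str let-7f replicate 2 had the highest value of its group in 12 of 26 amino acid carriers and 2x Str let-7f replicate 1 in 11 of 26. The summed level of the class averaged 20650 ± 2971 normalized counts in Str let-7f, 21970 ± 2866 in 2x Str let-7f and 24120 ± 2292 in vehicle pools (SD), with ranges of 16610 to 26010, 19170 to 26030 and 20620 to 27060. The ranges overlapped widely. The summed primitive endoderm markers were also highest of their group in those 2 pools, at 74900 in Str let-7f replicate 2 and 74200 in 2x Str let-7f replicate 1. Both lay below the lowest vehicle pool at 88500. In vehicle pools the extremes went the other way: replicate 1, with the highest carrier sum (27060), had that 88500, and replicate 7, with the lowest (20620), had 104000. The summed trophectoderm markers were highest of their group in 2x Str let-7f replicate 1 (122000) too, but not in Str let-7f replicate 2 (109000). The part of either cell type in the amino acid carrier levels was not tested.

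**Figure D3:**
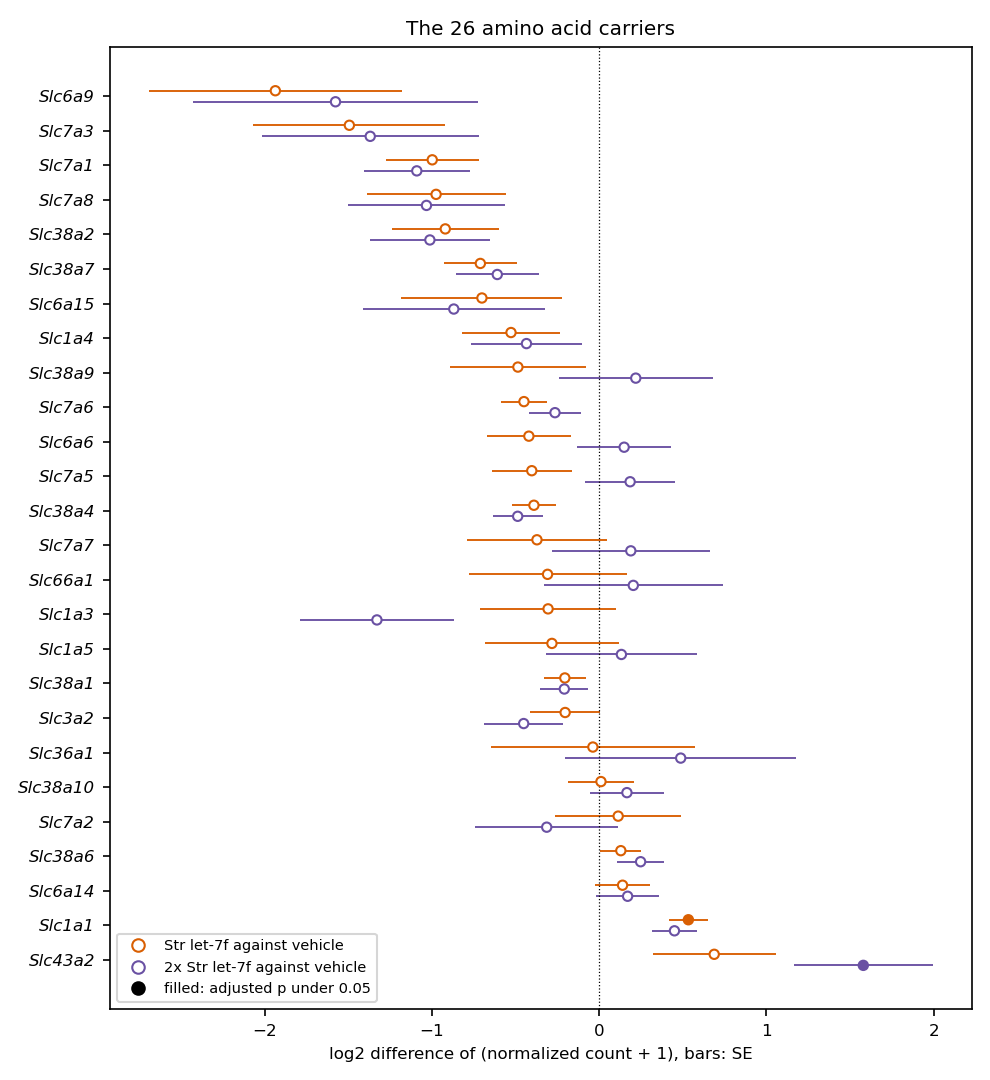
Log2 differences of (normalized count + 1) from vehicle for the 26 amino acid carriers, ordered down the page by the Str let-7f value, with bars for 1 SE; orange is Str let-7f against vehicle, purple 2x Str let-7f against vehicle, and filled points passed at an adjusted p under 0.05. Most Str let-7f points lie left of 0, from -1.94 for Slc6a9 upward, and the 2 filled points, Slc1a1 at 0.53 and Slc43a2 at 1.58, lie to the right.

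The 10 carriers of sugars and polyols were dominated by a single gene. Slc2a3, whose GLUT3 protein takes up glucose at the outer face of the mouse trophectoderm, held 71.1% of the summed level of the class. It had 5629 to 11550 normalized counts in Str let-7f pools (median 8241), 8662, 10810, 7808, 7938 and 7570 in 2x Str let-7f pools, and 8741 to 13600 in vehicle pools (median 10990). Below every vehicle pool lay 5 of 8 Str let-7f and 4 of 5 2x Str let-7f pools. The difference of -0.41 ± 0.13 in Str let-7f (limma, adjusted p = 0.0952) and -0.35 ± 0.15 in 2x Str let-7f (adjusted p = 0.294) did not pass. Leaving out Str let-7f replicate 2 brought Slc2a3 past the threshold in the Str let-7f comparison (limma, adjusted p = 0.0252). Without any other single library it did not pass there, with adjusted p up to 0.206 (without vehicle replicate 2). With array weights it passed in Str let-7f (limma, adjusted p = 0.0185) but not in 2x Str let-7f pools (0.0968). With a replicate block it passed in both (0.0148 and 0.011). In Str let-7f pools neither edgeR (0.110) nor DESeq2 (0.0758) called it, and libraries over 5 M reads gave 0.163 (limma). The summed level of the class was 12240 ± 2041 in Str let-7f, 12270 ± 1353 in 2x Str let-7f and 14490 ± 2115 normalized counts in vehicle pools (SD).

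Other glucose carriers went different ways. Slc2a1, which encodes the widespread GLUT1, lay at -0.38 and -0.65 (limma, adjusted p = 0.474 and 0.270). Slc2a8, which encodes the intracellular GLUT8, a carrier described in mouse blastocysts, had 201.6 to 335.7 normalized counts in Str let-7f pools, 344.0, 290.8, 276.8, 315.0 and 320.7 in 2x Str let-7f pools and 111.7 to 252.7 in vehicle pools. Its groups did not overlap for 2x Str let-7f, and its differences of 0.54 ± 0.18 (adjusted p = 0.119) and 0.76 ± 0.20 (adjusted p = 0.0513) stood just outside the threshold. Slc5a11, another myo-inositol cotransporter gene, differed by 0.10 and 0.01 (adjusted p = 0.824 and 0.989).

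Of the 25 ion carriers, 3 rose in Str let-7f pools (12.0%, beside 1.84% of all genes) and 2 in 2x Str let-7f pools (8.0%, beside 1.23%). As 2 of them, Slc4a3 and Slc13a4, entered the class only through mimic pools, nothing is read from these shares; without such genes 1 of 23 rose in Str let-7f pools, and 0 in 2x Str let-7f pools. Beside Slc4a3 and Slc13a4 this was Slc12a7, which encodes the potassium-chloride cotransporter KCC4. It had 1464 to 2662 normalized counts in Str let-7f pools (median 2181), 1640, 2396, 2243, 1911 and 2051 in 2x Str let-7f pools, and 1331 to 1701 in vehicle pools (median 1576). It exceeded every vehicle pool in 7 of 8 Str let-7f and 4 of 5 2x Str let-7f pools. The difference was 0.42 ± 0.11 (1.34-fold; limma, adjusted p = 0.0416) in Str let-7f and 0.37 ± 0.13 (adjusted p = 0.167) in 2x Str let-7f. The call was lost in 12 of 15 fits that left out 1 pool of either group, all but those without vehicle replicate 7 or Str let-7f replicate 2 or 9, with adjusted p up to 0.0961.

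The other ion carriers did not pass. Slc20a1, the sodium-phosphate cotransporter PiT1 and the most abundant of the class per kilobase, lay at -0.40 ± 0.14 and -0.31 ± 0.16 (limma, adjusted p = 0.155 and 0.428). Slc4a2, which encodes AE2, the anion exchanger related to AE3, lay at -0.31 and -0.37 (adjusted p = 0.478 and 0.508). Its mean level of 341.8 normalized counts per kilobase over all libraries compares with 33.9 for Slc4a3. The class median was -0.01 in the Str let-7f group and 0.10 in the 2x Str let-7f group.

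Metal carriers gave no call. Of 22 genes 0 passed in either comparison (edgeR and DESeq2 also called 0 of them). In Str let-7f and 2x Str let-7f 2 and 1 had an unadjusted p under 0.05, beside 14.9% and 12.9% of all genes, and 18 and 20 lay within 0.5 of 0 on the log2 scale. The class median was 0.01 and -0.05. Slc39a4, the zinc importer ZIP4, lay at 0.11 and -0.09 (limma, adjusted p = 0.835 and 0.908), Slc39a14 (ZIP14), which also takes up iron, at -0.24 and 0.15 (adjusted p = 0.790 and 0.915), and the zinc exporter gene Slc30a2 at 0.72 and 0.32 (adjusted p = 0.279 and 0.796). The largest difference was that of Slc40a1, the iron exporter ferroportin, at -0.87 ± 0.84 and -2.04 ± 0.95 (adjusted p = 0.692 and 0.367). It had 12.7 to 244.7, 0 to 142.0 and 46.2 to 790.0 normalized counts in Str let-7f, 2x Str let-7f and vehicle pools, and the 790.0 was vehicle replicate 1 alone.

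The 5 carriers of nucleosides and nucleobases gave 0 calls in the main limma fit. With array weights limma called Slc29a1 and Slc29a3 in 2x Str let-7f pools. At an unadjusted p under 0.05 stood 0 in the Str let-7f group and 3 in the 2x Str let-7f group, beside 14.9% and 12.9% of all genes. Slc28a3, the concentrative carrier CNT3, held 59.0% of the summed level of the class. It averaged 1929 ± 540.2 normalized counts in Str let-7f, 2780 ± 723.7 in 2x Str let-7f and 1971 ± 382.2 in vehicle pools (SD), with differences of -0.06 ± 0.18 (limma, adjusted p = 0.924) and 0.48 ± 0.20 (adjusted p = 0.308). Slc29a1, the equilibrative carrier ENT1, lay at -0.35 and -0.82 (adjusted p = 0.509 and 0.121). Slc29a3, its lysosomal relative ENT3, lay at 0.54 and 1.06 (adjusted p = 0.413 and 0.125), where 2x Str let-7f replicate 2 alone had 687.2 against at most 267.5 in the other 2x Str let-7f pools; DESeq2 on whole reads called it in 2x Str let-7f. Slc43a3, a purine nucleobase carrier, lay at 0.44 and 0.25 and Slc29a4 at 0.34 and 0.18 (adjusted p of at least 0.353).

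Among the 33 mitochondrial carriers of the Slc25 family 1 rose in Str let-7f pools (3.03%, beside 2.63% of all genes called in either direction). In 2x Str let-7f pools 1 rose and 1 fell (6.06%, beside 1.89%). The gene that fell was Slc25a28, which encodes mitoferrin-2, an iron importer of the inner membrane. It had 188.3 to 309.7 normalized counts in Str let-7f pools (median 237.1), 170.0, 169.9, 213.9, 160.1 and 236.7 in 2x Str let-7f pools, and 235.5 to 473.5 in vehicle pools (median 335.7). Of the 2x Str let-7f pools 4 of 5 lay below every vehicle pool, and the fifth overlapped vehicle replicate 1. It fell by 0.83 ± 0.19 on the log2 scale in 2x Str let-7f (0.563-fold; limma, adjusted p = 0.0247), and its difference in Str let-7f was -0.45 ± 0.17 (adjusted p = 0.190). The call was lost without vehicle replicate 6 or 2x Str let-7f replicate 2 or 4 (adjusted p up to 0.0748) and with libraries over 5 M reads only (adjusted p = 0.338).

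The abundant mitochondrial carriers lay near their vehicle level. Slc25a3, the phosphate carrier, lay at -0.06 ± 0.11 and -0.15 ± 0.12, and Slc25a4 and Slc25a5, the adenine nucleotide translocases that exchange ATP for ADP, at -0.07 and -0.08 and at 0.13 and 0.01 (limma, adjusted p of at least 0.578 for all 3). The summed level of the class was 18620 ± 1372 in Str let-7f, 17640 ± 784.8 in 2x Str let-7f and 18200 ± 1590 normalized counts in vehicle pools (SD). Lower down, Slc25a36, a pyrimidine nucleotide carrier, lay at -0.64 in both comparisons (adjusted p = 0.0913 and 0.172) and Slc25a24, an ATP-magnesium and phosphate carrier, at 1.02 and 0.87 (adjusted p = 0.117 and 0.314). Slc25a13, the aspartate-glutamate carrier citrin, averaged 559.1 ± 194.0 in Str let-7f, 295.6 ± 185.1 in 2x Str let-7f and 616.5 ± 353.3 normalized counts in vehicle pools, with differences of -0.07 and -1.10 (adjusted p = 0.951 and 0.158).

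**Figure D4:**
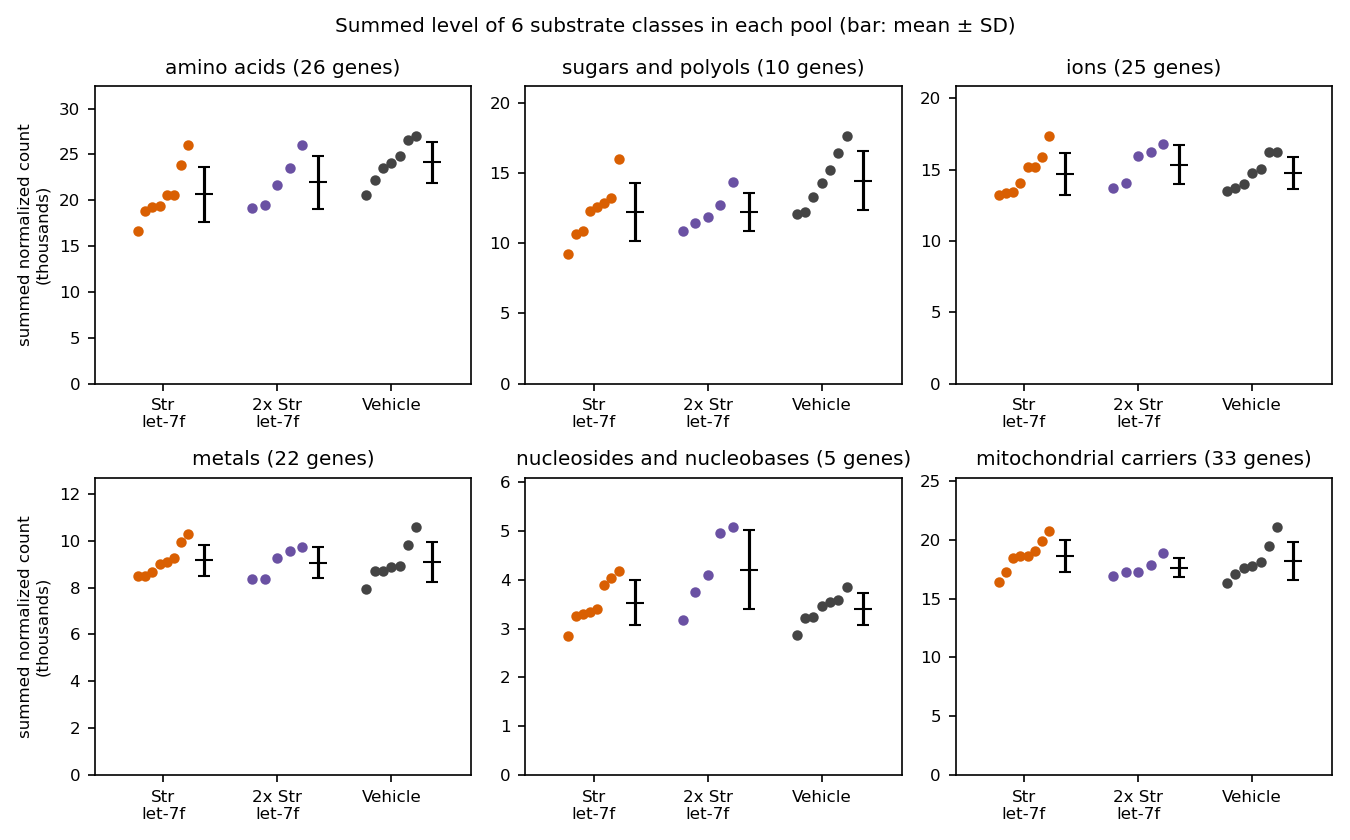
Summed normalized counts (axes from 0, in units of 1000) of 6 substrate classes, with 1 point per pool and the mean ± SD beside it; groups from left to right are Str let-7f (8 pools), 2x Str let-7f (5) and vehicle (7). The groups overlap in every class; amino acid carriers average 20650 and 21970 in the mimic groups and 24120 in vehicle, and metal and mitochondrial carriers stand at nearly the same height in the 3 groups.

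The remaining classes held no gene that passed in either comparison in the main limma fit. These were 20 carriers of nucleotide sugars and related Slc35 genes, 20 of other organic solutes, 11 of vitamins and choline, 3 of lipids, 2 of peptides and Slc16a1, the lactate and pyruvate carrier MCT1. DESeq2 on whole reads called Slc35f2 in both comparisons, Slc66a3 in Str let-7f and Slc5a6 in 2x Str let-7f pools. With array weights limma called Slc35f2 in both comparisons. In 2x Str let-7f pools that fit also called Slc16a5, Slc35e4, Slc5a6 and Slc6a13. Slc16a5, a relative of the monocarboxylate carriers, had 38.0 to 410.9 normalized counts in Str let-7f pools, 18.0, 33.5, 110.3, 149.8 and 104.5 in 2x Str let-7f pools and 11.9 to 37.0 in vehicle pools. Its differences of 1.64 ± 0.53 and 1.52 ± 0.59 missed the threshold (limma, adjusted p = 0.110 and 0.250). On whole reads edgeR and DESeq2 called it in Str let-7f pools (adjusted p = 0.0379 and 0.00256), where it is one of the genes that met the mean of 50 only through mimic pools. The Str let-7f pools did not overlap vehicle, and Str let-7f replicate 2 alone supplied the 410.9. Slc35f2 lay at 0.55 and 0.58 (adjusted p = 0.0786 and 0.124) and Slc35f5, whose 2x Str let-7f pools all exceeded vehicle, at 0.53 and 0.81 (adjusted p = 0.294 and 0.152).

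Among vitamin carriers Slc5a6, the sodium-dependent carrier of biotin and pantothenate, had 440.4 to 1028 normalized counts in Str let-7f pools, 642.0, 738.7, 596.5, 573.3 and 734.2 in 2x Str let-7f pools and 789.3 to 1627 in vehicle pools. Every 2x Str let-7f pool lay below every vehicle pool, and the differences of -0.48 ± 0.18 and -0.70 ± 0.20 did not pass (limma, adjusted p = 0.184 and 0.0833). Slc23a2, the vitamin C carrier SVCT2, lay at 0.17 and 0.92 (adjusted p = 0.855 and 0.195). The choline carrier gene Slc44a1 lay at 0.02 ± 0.09 and -0.09 ± 0.10 (adjusted p = 0.962 and 0.779), with 95% intervals of -0.16 to 0.19 and -0.29 to 0.10.

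Several of the most abundant genes of the smaller classes can be bounded in the same way. Slc16a1 had a difference of 0.10 (95% interval -0.12 to 0.32) in Str let-7f and 0.18 (-0.07 to 0.43) in 2x Str let-7f. The peptide carrier genes Slc15a2 (PEPT2) and Slc15a4 lay at 0.02 and 0.03 and at -0.07 and 0.33, and the fatty acid transport protein genes Slc27a4 and Slc27a1 at 0.31 and 0.40 and at 0.38 and 0.07 (limma, adjusted p of at least 0.456). Slc22a5, the carnitine carrier OCTN2 of the plasma membrane, lay at -0.57 and -0.61 (adjusted p = 0.287 and 0.377), beside the rise of the mitochondrial acylcarnitine carrier gene Slc25a20. Slc45a4 lay at 0.27 and 0.22, Slc35e2 at -0.16 and 0.19 and Slc35g1 at 0.20 and 0.04 (adjusted p of at least 0.477). Of the 2 genes that matched by symbol alone, Slc4a1ap lay at -0.50 and -0.43 (adjusted p = 0.0660 and 0.240) and Slc7a6os at 0.01 and 0.07.

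Between the 2 concentrations no carrier gene passed the test. With the 2x Str let-7f pools set against the Str let-7f pools, limma called 0 of the 180 genes and 0.0% of all genes, and 8 of the 180 (4.44%) had an unadjusted p under 0.05, beside 4.04% of all genes. edgeR and DESeq2 on whole reads also called 0 of the 180. The differences of the 4 genes that rose at both concentrations were 0.22 for Slc4a3 (95% interval -1.13 to 1.57), 0.06 for Slc13a4 (-1.08 to 1.19), -0.02 for Slc25a20 (-0.40 to 0.37) and 0.03 for Slc5a3 (-0.33 to 0.39). The intervals of Slc4a3 and Slc13a4 reach past 1 on the log2 scale in both directions.

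Sites for the injected let-7f were about as frequent in carrier genes as elsewhere. The 8-base site CTACCTCA lay in the annotated 3′ untranslated region of 5 of 176 carrier genes with one (2.84%), beside 3.73% of 13148 genes, and the 7-base sites opposite bases 2 to 8 and opposite bases 2 to 7 with A were the best match in 9.66% and 6.25% of carrier genes, beside 7.26% and 6.56%. The 5 windows of 30 bases are given from GENCODE M21 on GRCm38, with the site in capitals, because these are the carrier transcripts that match the mimic over 8 bases.
Slc2a3 (chromosome 6): ctgaggttggaaggctCTACCTCActacag
Slc12a9 (chromosome 5): cttctgtgactctaggCTACCTCAgtgtcc
Slc22a23 (chromosome 13): ctctggaatgtcttccCTACCTCAcctgat
Slc30a1 (chromosome 1): atttccaaagctgttcCTACCTCAccatga
Slc8b1 (chromosome 5): agcctgggctctgtgcCTACCTCAagggga

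The 5 genes did not go one way, and none passed the test. Slc2a3 lay at -0.41 and -0.35, Slc12a9, an orphan relative of the cation-chloride cotransporters, at -0.54 and -0.92, and the orphan Slc22a23 at -0.36 and -0.28. The zinc exporter gene Slc30a1 (ZnT1) lay at 0.41 and 0.33, and Slc8b1, the mitochondrial sodium-calcium exchanger NCLX, at 0.01 and -0.23. Their median was -0.36 in the Str let-7f group and -0.28 in the 2x Str let-7f group, beside -0.06 and -0.04 over all 490 genes with that site. Of the 8 genes that passed a test only Slc13a4, which rose, held a 7-base site opposite bases 2 to 8.

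Carriers that go by other names gave calls near the background. Of 46 listed, 35 were in the table, and 0 passed in Str let-7f pools (beside 2.63% of all genes), while 1 passed in 2x Str let-7f pools (2.86%, beside 1.89%). This was Slco4c1, an organic anion carrier, which averaged 126.8 ± 42.8 normalized counts in Str let-7f, 84.6 ± 28.1 in 2x Str let-7f and 214.4 ± 51.5 in vehicle pools (SD). It fell by 1.38 ± 0.29 in 2x Str let-7f (limma, adjusted p = 0.0126), and its difference in Str let-7f was -0.79 ± 0.25 (adjusted p = 0.110). With libraries over 5 M reads only, the 2x Str let-7f call was lost (adjusted p = 0.189).

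Of 16 measured chaperones and regulators of carriers, 1 passed at each concentration (6.25%, beside 2.63% and 1.89% of all genes). This was Txnip, whose product draws glucose carriers off the plasma membrane and whose transcript is known to follow glucose. It had 479.6 to 928.3 normalized counts in Str let-7f pools (median 830.8), averaged 1177 ± 468.0 in 2x Str let-7f pools (SD), and had 16.6 to 812.2 in vehicle pools (median 199.0), where replicate 1 alone reached the upper value. It rose by 2.10 ± 0.49 (limma, adjusted p = 0.0181) in Str let-7f and by 2.66 ± 0.55 (adjusted p = 0.0127) in 2x Str let-7f. With libraries over 5 M reads only, neither call held (adjusted p = 0.0999 and 0.231), and edgeR on whole reads gave 0.0770 for Str let-7f.

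The 2 carrier genes left out by name did not pass. Slc6a8, the creatine carrier, averaged 13750 ± 1794 normalized counts in Str let-7f, 14740 ± 3665 in 2x Str let-7f and 11650 ± 1844 in vehicle pools (SD), with differences of 0.24 and 0.32 (limma, adjusted p = 0.345 and 0.307). Slc7a11, the cystine-glutamate exchanger, had a mean level of 44.7 and differences of -0.33 and 0.19 (adjusted p = 0.747 and 0.905).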

How the data were processed

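Libraries were made with a stranded low-input kit after ribosomal RNA depletion, per the labels' protocols. kallisto 0.50.1, Trimmomatic 0.39, MultiQC 1.28, FastQC 0.12.1, DESeq2 1.48.2 and the build GRCm39 appear in the submitters' processing notes; the annotation and how transcripts were summed to genes are not given in the sources used here. The authors deposited 1 table of normalized counts per gene, a signal already divided by a factor per library. Steps between low values gave whole reads for 100.0% of values within 0.01 read, which gave each library's depth and the reads for the count tests. kallisto divides reads among similar transcripts, so levels of overlapping or closely related genes are uncertain. A row with no gene name, 0.0286% to 0.0618% of a library, was left out.

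Values were tested as log2(value + 1), so folds of low genes are understated. The 15068 genes that reached 10 in 5 or more libraries entered 1 limma 3.58.1 fit with a trended prior over all 20 libraries and 1 mean per group (R 4.3.3; Python 3.11.15), two-sided, with Benjamini-Hochberg adjustment at 0.05. SEs and 95% intervals come from that fit. edgeR 4.0.16 (quasi-likelihood) and DESeq2 1.42.0 on whole reads, other pseudocounts, filters, scalings, weights and depths, a replicate block and leaving out each library were alternatives. The code was tested on simulated data. No 2 libraries of a group agreed within sampling noise (59 pairs, lowest chi-square over its degrees of freedom 16.8).

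The genes and lists were chosen with earlier results of these data known, and the class of Slc4a1ap and of the Slc8b and Slc9b genes was set after the table was seen. Named were genes that passed, the 2 most abundant of each class, the neighbours of the threshold, and in classes without a call the gene with the smallest p. Other named genes, among them Slc7a1, Slc7a3, Slc7a5, Slc7a6, Slc7a8, Slc3a2, Slc38a2, Slc38a4, Slc38a7, Slc6a9, Slc2a1, Slc2a8, Slc4a2, Slc25a5, Slc25a13, Slc25a24, Slc25a36, Slc29a3, Slc35f5, Slc23a2, Txnip and the genes with an 8-base site, were chosen after their values were seen. Per-kilobase levels used the median annotated transcript length. Untranslated regions (GENCODE M21, GRCm38) and promoters (RefSeq) come from another build than that in the notes, so no coordinates of the deposited values are given.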

Additional observations from a re-analysis of the deposited data

Results flagged for a closer look

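Within a group, 27 of 210 sets of values (12.9%), from 70 genes in 3 groups, had 1 pool standing far from the rest, judged by its gap to the nearest pool over the range of the group. Chance flags about 1 in 20 sets of normally distributed values. These values were not on a log scale, and many of the genes were chosen after their values were seen. No excess over chance is therefore read from the share. Values are normalized counts, and none of the single pools was explained or left out of the main fit.

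In Str let-7f pools the highest value stood apart in replicate 1 for Slc38a1 (2746, next 1954), Slc15a2 (1494, next 956.4) and Slc6a8 (17710, next 14360). The same held in replicate 2 for Slc7a3 (183.8, next 84.2), Slc16a5 (410.9, next 169.8) and Slc2a1 (923.4, next 462.6), and in replicate 6 for Slc27a1 (660.2, next 325.5) and Slc29a3 (226.6, next 170.3). Replicate 9, the shallowest library, stood apart for Slc39a14 (1862, next 1047) and Slc7a11 (82.3, next 45.9).

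In 2x Str let-7f pools replicate 1 was highest for Slc6a15 (104.0, next 33.5), and replicate 2 for Slc29a3 (687.2, next 267.5), Slc29a4 (87.5, next 52.9) and Slc29a2 (110.7, next 34.4). Replicate 3 was highest for Slc38a6 (4577, next 3331) and Slc6a9 (203.5, next 20.6), replicate 4 for Slc5a3 (1152, next 636.0) and replicate 5 for Slc16a1 (825.2, next 681.7). For Slc1a1 replicate 4 stood apart at the low end (1766, next 1874).

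In vehicle pools replicate 1 was highest for Slc40a1 (790.0, next 131.9), Slc5a11 (1184, next 857.5) and Txnip (812.2, next 354.3), and lowest for Slc12a7 (1331, next 1547). Replicate 7 was highest for Slc25a20 (685.3, next 549.8), and replicate 8 for Slc25a13 (1338, next 753.6), Slc45a4 (2974, next 1448) and Slc44a1 (5964, next 4849).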

How the results depend on the processing

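Counts of called carrier genes depended on the fit. They are given without the share of all genes called under the same fit, so they do not compare carriers with other genes. Higher in Str let-7f (6) became 3 with a replicate block, 2 with libraries over 5 M reads and 10 with DESeq2, and 5 to 7 when single libraries were left out; lower (0) became 1 with only both groups compared, 6 with array weights, 3 with the block, 1 with libraries over 5 M reads and 3 with DESeq2, and 0 to 6 without single libraries (6 without Str let-7f replicate 2). Higher in 2x Str let-7f (5) became 3 with TMM scaling, with only both groups compared or with no trend, 13 with array weights, 2 with the block, 1 with libraries over 5 M reads and 8 with DESeq2, and 1 to 6 without single libraries; lower (1) became 7 with array weights, 5 with the block, 0 with libraries over 5 M reads and 2 with DESeq2, and 0 to 2 without single libraries. A further rule of a vehicle mean of at least 50, chosen after seeing the data, left 3 higher in 2x Str let-7f, since it removes genes. The cause of the other changes was not tested. Between the mimic groups the count was 0 under each of these. Scaling moved the median of all genes by at most 0.0245. The labels do not say what a replicate number stands for. Deviations of the 14 same-number pairs correlated at -0.0066 to 0.0922 (median 0.05055), 0 over 0.1. Those of the 117 other-number pairs correlated at -0.1087 to 0.1174 (median -0.0077). Whether the numbers mark a shared factor was not tested. With the block Slc25a20 passed in neither comparison (limma, adjusted p = 0.178 and 0.236). Slc1a1 (0.0642) and Slc12a7 (0.146) were lost in Str let-7f. Slc5a3 (0.332), Slc25a28 (0.123) and Slc43a2 (0.0501) were lost in 2x Str let-7f. Slc7a1 and Slc2a3 passed as lower in both comparisons.

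Of the outcomes for single genes, 4593 kept direction and side of the threshold, 69 passed newly, 101 no longer passed and 121 reversed. Reversed log2 differences of Str let-7f from vehicle were Slc8b1 -0.011 (TMM), -0.0035 (edgeR), Slc27a4 -0.071 (block), Slc39a4 -0.0055 (over 5 M), Slc25a13 0.063 (weights), 0.36 (block), 0.15 (over 5 M), Slc7a6os -0.0027 (TMM), Slc28a3 0.075 (block), 0.040 (over 5 M), Slc15a2 -0.13 (weights), -0.034 (over 5 M), Slc5a11 -0.014 (over 5 M) and Slc44a1 -0.00030 (TMM), -0.0061 (weights). Those of 2x Str let-7f from vehicle were Slc7a5 -0.15 (weights), -0.16 (block), -0.063 (over 5 M), Slc39a4 0.015 (block), Slc25a3 0.022 (over 5 M), Slc25a4 0.047 (block), Slc25a5 -0.016 (TMM), -0.053 (weights), -0.021 (block), -0.068 (over 5 M), Slc7a6os -0.018 (block), Slc29a4 -0.0021 (over 5 M), Slc15a2 -0.057 (weights), -0.21 (block), -0.0064 (over 5 M), -0.0013 (edgeR), Slc5a11 -0.015 (TMM), -0.23 (weights), -0.20 (block), -0.26 (over 5 M), Slc44a1 0.031 (over 5 M) and Slc7a11 -0.36 (over 5 M). Between the mimic groups (2x minus Str) they were Slc4a3 -0.28 (over 5 M), Slc13a4 -0.18 (edgeR), -0.19 (DESeq2), Slc25a20 0.060 (block) and Slc5a3 -0.095 (weights), -0.29 (block), -0.14 (over 5 M).

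Without single libraries, differences that changed sign ranged, for Str let-7f from vehicle, over -0.047 to 0.096 (Slc8b1), -0.19 to 0.14 (Slc25a13), -0.073 to 0.084 (Slc7a6os), -0.14 to 0.056 (Slc28a3), -0.11 to 0.10 (Slc15a2), -0.17 to 0.049 (Slc15a4), -0.015 to 0.078 (Slc44a1) and -0.20 to 0.48 (Slc4a5). For 2x Str let-7f from vehicle they ranged over -0.030 to 0.12 (Slc27a1), -0.16 to 0.013 (Slc39a4), -0.030 to 0.35 (Slc39a14), -0.085 to 0.069 (Slc25a5), -0.0064 to 0.14 (Slc7a6os), -0.00040 to 0.34 (Slc29a4), -0.046 to 0.090 (Slc35g1), -0.037 to 0.11 (Slc15a2), -0.097 to 0.17 (Slc5a11) and -0.037 to 0.48 (Slc7a11), and between the mimic groups (2x minus Str) over -0.13 to 0.023 (Slc12a7), -0.037 to 0.78 (Slc4a3), -0.17 to 0.32 (Slc13a4), -0.11 to 0.081 (Slc25a20) and -0.15 to 0.091 (Slc5a3).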
